A study of Mus musculus with 20 samples.

Results

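Untreated Trim33-KO cells were compared with untreated Trim33-WT cells in the hydroxyurea (HU) experiment, using the 4 untreated libraries of the 20 in the series and every gene of the count table. The members were taken by their labels and column names, as 2 libraries of each genotype, and no measured value entered the choice. All libraries of the series came from p19Nras cells, a mouse liver cancer line that lacks p19Arf and carries oncogenic Nras, so both groups share these alterations. Trim33-WT cells carried the control guide (sgCtrl) and Trim33-KO cells the Trim33 guide (sgTrim33), introduced with CRISPR-Cas9, and both groups received vehicle for 4 h. The remaining 4 libraries of this experiment came from the same genotypes given 1 mM HU, which blocks the supply of deoxynucleotides and stalls replication forks, for the same 4 h. The labels do not say whether the knockout is 1 clone or a pool, nor whether the replicates are separate cultures. The p-values therefore measure only a spread between libraries, which may be technical. That spread was estimated from all 8 libraries of this experiment, the HU-treated ones included.

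Trim33 (also called TIF1γ) is a RING-type ubiquitin ligase of the TIF1 family that reads modified histone H3 tails through a PHD finger and a bromodomain. It acts in TGF-β and BMP signalling by binding phosphorylated Smad2 and Smad3 and by ubiquitinating Smad4, and it has been described as a tumour suppressor in liver together with its relative Trim24. The ligase has also been linked to E2f4 and to the control of DNA replication, which is the question of the series.

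The 4 untreated libraries held between 2315327 and 3046581 counts, over 11210 genes. Levels are given as counts per 1000000 counts of the library (CPM), with normalised library sizes, and changes as log2 fold changes of Trim33-KO against Trim33-WT with their standard error (SE). A gene was called when the Benjamini-Hochberg adjusted p of edgeR's quasi-likelihood test was below 0.01. In a principal component analysis of the 8 libraries of the experiment the first component (36.8% of the variance) separated the genotypes and the second (27.5%) the treatment. The label of liver cancer cells was set against marker genes. None of the 10 hepatocyte markers and none of the 6 endothelial markers was in the table, and of 8 leukocyte markers only Cd68 was, at 1.63 to 3.38 CPM. Of 5 fetal liver markers only Afp was listed, at 17.1 and 13.5 CPM in Trim33-WT and 25.2 and 25.4 CPM in Trim33-KO. Of 3 epithelial markers Cdh1 was not in the table, and the keratins Krt8 and Krt18 summed to between 2039 and 2844 CPM. Of 10 mesenchymal markers 4 were in the table and summed to between 2667 and 3413 CPM. Nearly all of that was Vim, at 2602 to 3405 CPM. Of 6 biliary markers Krt19, Sox9 and Spp1 were present in both groups, and Krt7, Epcam and Cftr were not in the table. Of a wider list of 32 hepatocyte and fetal liver genes 9 were in the table.

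Trim33 itself was measured first. The gene (mm9 chr3:103083216-103162691) was at 140 and 125 CPM in Trim33-WT and at 50.8 and 43.8 CPM in Trim33-KO. Both knockout libraries lay below both wild-type libraries, and the transcript kept 35.6% of the wild-type level (log2 fold change -1.49, SE 0.16, adjusted p = 3.48e-11). Protein was not measured here, and with HU the transcript level was 36.6% of that in Trim33-WT. Among the TIF1 family, the co-regulator Trim24 changed the other way, from 44.6 and 42.1 CPM to 115 and 104 CPM (1.34, SE 0.16, adjusted p = 2.27e-09). The groups did not overlap for Trim24 either. Trim28, the corepressor of KRAB zinc finger proteins, was at 238 and 278 CPM in Trim33-WT and 281 and 326 CPM in Trim33-KO and was not called (adjusted p = 0.185), nor was Trim66 (-0.25, SE 0.49).

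Across the genome the untreated knockout differed from wild type at 626 of 11210 genes (5.58%). Of these, 344 genes (3.07%) were higher and 282 (2.52%) lower in Trim33-KO. The changes were mostly moderate, with a median log2 fold change of 0.76 (quartiles 0.58 and 1.26) for the genes that rose and -0.91 (quartiles -1.67 and -0.62) for those that fell. A difference of at least 1 on the log2 scale was reached by 122 of the genes that rose and 130 of those that fell. At an unadjusted p below 0.05 the test gave 2766 genes. For all 626 called genes the 2 libraries of one group lay on the same side of the 2 of the other, which also held for 50.1% of all genes tested. The number rested on 1 library more than on the others: without untreated Trim33-KO replicate 2 it was 337, with 199 higher and 138 lower.

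The 15 genes with the largest rises were taken from called genes with a symbol, groups that did not overlap and a mean of at least 10 CPM over the 4 untreated libraries. They held an adhesion molecule, a synaptotagmin, a glycosyltransferase, transporters, a small heat shock protein and 2 cornified envelope genes. Cntn3 (mm9 chr6:102113300-102414661), a contactin of the immunoglobulin superfamily of cell adhesion molecules, had no read in either Trim33-WT library and was at 44.3 and 47.4 CPM in Trim33-KO. The 251 counts in the knockout set against a floor of 3 counts per wild-type library made it at least 38.3-fold higher. Syt13, a synaptotagmin, was also at 0 in both Trim33-WT libraries and at 26.8 and 28.1 CPM in Trim33-KO, at least 22.9-fold higher. The membrane protein gene Tmem47 went from 0 in both to 30.9 and 20.05 CPM, at least 20.8-fold higher. Without treatment each of these 3 genes was thus seen in the knockout alone at this depth. Mgat4a, a Golgi enzyme that branches N-glycans, had 2 counts in each wild-type library (0.857 and 0.752 CPM) and was at 24.4 and 28.1 CPM in Trim33-KO, a ratio of 33.0 (95% counting interval 12.6 to 123). Low counts in this table were even more often than odd (70.2 to 73.3% of the counts from 1 to 50), so counting intervals are too narrow here.

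Slco4a1 (mm9 chr2:180190950-180209572), an organic anion transporter that carries thyroid hormone, was at 3.43 and 3.76 CPM in Trim33-WT and at 76.4 and 76.8 CPM in Trim33-KO (4.39, SE 0.30, adjusted p = 1.22e-18). Cryab, the small heat shock protein αB-crystallin, went from 2.57 and 3.01 CPM to 52.9 and 54.8 CPM (4.24, SE 0.33, adjusted p = 6.42e-16). In both cases the replicates lay close together and the groups far apart. Nqo1 (mm9 chr8:109912125-109927106), the quinone reductase that is a standard target of Nrf2, was at 9.85 and 18.8 CPM in Trim33-WT and at 109 and 108 CPM in Trim33-KO (2.89, SE 0.22, adjusted p = 2.45e-16). The water channel gene Aqp8 rose from 4.28 and 4.51 CPM to 30.1 and 35.4 CPM (2.89, SE 0.37, adjusted p = 1.31e-08). Igsf11, an adhesion molecule of the immunoglobulin superfamily, went from 12 and 16.5 CPM to 85.0 and 54.8 CPM (2.27, SE 0.26, adjusted p = 8.95e-10), with the wider spread in the knockout. The others of the 15 besides Sprr1a and Sprr2k, described next, were the LIM protein gene Crip2 (3.65, SE 0.48), the band 4.1 family gene Epb41l4a (2.47, SE 0.48), the proteolipid family gene Gpm6b (2.39, SE 0.49) and Tmem185b (2.19, SE 0.45). Epb41l4a, Gpm6b and Tmem185b lost the call in at least 1 of the 8 fits that left out a single library.

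**Figure D1:**
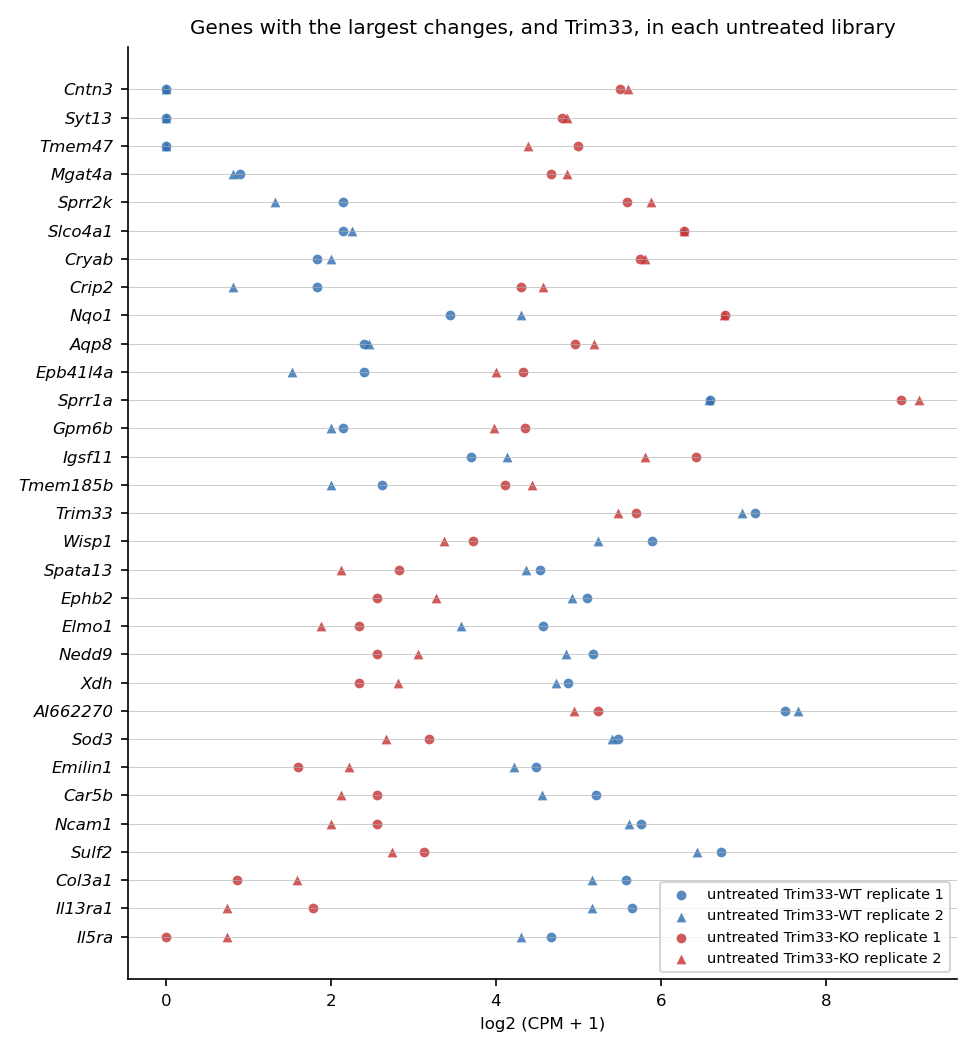
Normalised level of the 15 genes with the largest rises, Trim33 and the 15 genes with the largest falls in each of the 4 untreated libraries, as log2 of CPM plus 1; blue symbols are Trim33-WT, red symbols Trim33-KO, circles replicate 1 and triangles replicate 2. In every line the 2 red symbols lie on one side of the 2 blue ones, which the rule for the largest rises and falls required. Cntn3, Syt13 and Tmem47 are at 0 in both Trim33-WT libraries.

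Sprr1a and Sprr2k belong to the epidermal differentiation complex, a cluster of genes on chromosome 3 for small proline-rich and late cornified envelope proteins, which are crosslinked under the membrane of squamous cells, with the calcium-binding S100 genes beside them. The cluster was singled out after these values were seen. Sprr1a (mm9 chr3:92287877-92289816) was at 96.0 and 94.7 CPM in Trim33-WT and at 482 and 561 CPM in Trim33-KO (2.45, SE 0.12, adjusted p = 6.58e-26), the lowest adjusted p of the comparison. Sprr2k went from 3.43 and 1.5 CPM to 47.2 and 57.8 CPM (4.42, SE 0.34, adjusted p = 2.45e-16). Sprr1b was at 168 and 256 CPM in Trim33-WT and at 543 and 549 CPM in Trim33-KO (1.36, adjusted p = 2.53e-14). The late cornified envelope gene Lce1g rose from 22.3 and 27.8 CPM to 71.6 and 101 CPM (1.79, SE 0.20, adjusted p = 5.16e-10), and Sprr2h from 228 and 261 CPM to 385 and 388 CPM (0.66, adjusted p = 1.25e-05). No library of one genotype overlapped the other for any of these genes, as for every called gene. The S100 genes S100a10 (0.67), S100a11 (0.66), S100a16 (0.65) and S100a6 (0.50) rose less. Between mm9 positions 90314956 and 93368565 of chromosome 3 the table held 20 genes of the complex and its S100 genes. Of these, 9 rose and none fell, 17 had a positive value, and the median was 0.66. Among the other 509 genes of the chromosome 20 rose and the median was 0.14. S100a11 and S100a16 lost the call in at least 1 fit with a library left out, and the Sprr genes are close copies of each other, so reads of nearly identical members cannot be assigned with confidence.

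The promoters of the 5 cornified envelope genes that rose are shown because these genes lie together and moved together. Each line gives the 250 bases before the start site on the gene's strand (RefSeq, GRCm38.p6), with every match of TGANTCA in capitals. The consensus of an AP-1 site has C or G at N, so the pattern searched is wider than that consensus.
Sprr1a, chr3:92485882-92486131, minus strand: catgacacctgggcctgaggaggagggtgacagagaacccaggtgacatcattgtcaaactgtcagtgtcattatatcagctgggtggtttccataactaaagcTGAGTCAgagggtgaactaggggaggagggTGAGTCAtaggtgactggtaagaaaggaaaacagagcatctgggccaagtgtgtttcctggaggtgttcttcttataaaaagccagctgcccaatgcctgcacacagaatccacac
Sprr1b, chr3:92438780-92439029, minus strand: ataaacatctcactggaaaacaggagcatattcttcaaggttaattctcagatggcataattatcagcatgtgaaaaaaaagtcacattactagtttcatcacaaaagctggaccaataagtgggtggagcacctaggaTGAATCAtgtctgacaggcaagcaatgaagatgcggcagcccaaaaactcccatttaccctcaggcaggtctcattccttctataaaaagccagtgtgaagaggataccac
Sprr2k, chr3:92432332-92432581, plus strand: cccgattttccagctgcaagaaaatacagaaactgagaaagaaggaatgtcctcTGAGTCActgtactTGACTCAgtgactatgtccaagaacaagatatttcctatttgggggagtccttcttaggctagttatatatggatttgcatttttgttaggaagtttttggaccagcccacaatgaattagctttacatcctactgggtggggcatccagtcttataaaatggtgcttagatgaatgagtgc
Sprr2h, chr3:92385435-92385684, plus strand: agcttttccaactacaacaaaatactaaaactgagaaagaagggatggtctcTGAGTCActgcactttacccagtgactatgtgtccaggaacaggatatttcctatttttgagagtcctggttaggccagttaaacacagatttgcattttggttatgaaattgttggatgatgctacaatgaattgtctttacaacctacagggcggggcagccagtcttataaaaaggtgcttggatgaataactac
Lce1g, chr3:92752339-92752588, minus strand: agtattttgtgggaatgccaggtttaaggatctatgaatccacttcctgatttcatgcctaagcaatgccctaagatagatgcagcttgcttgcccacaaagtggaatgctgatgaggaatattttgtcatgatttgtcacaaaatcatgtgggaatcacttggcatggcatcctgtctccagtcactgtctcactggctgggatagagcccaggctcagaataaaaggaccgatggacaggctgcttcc
TGANTCA reads the same on both strands, so a single search covers both. Sprr1a and Sprr2k held 2 matches each, Sprr1b and Sprr2h 1 each and Lce1g 0. The match of Sprr1b has A at N and is outside the AP-1 consensus. In Sprr1a the matches began 146 and 116 bases before the start site, and in Sprr2k 196 and 182 bases before it. Over all 32851 promoters of the same length, 6.75% held a match, and over the 10936 promoters of tested genes 4.57% did. Of the 350 promoters of genes that rose 8.57% held one, and of the 265 of genes that fell 5.66%. In the chromosome 3 cluster the share was 40.9% of 22 promoters of tested genes. These shares count any base at N, and a match is a run of letters and no measurement of binding.

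The 15 largest falls by the same rule included receptors and extracellular matrix genes. Il5ra, the α chain of the interleukin 5 receptor, was at 24.4 and 18.8 CPM in Trim33-WT and at 0 and 0.668 CPM in Trim33-KO, a ratio of 58.4 (95% counting interval 15.8 to 489). Il13ra1 (mm9 chrX:33652105-33711254), a receptor chain for interleukins 4 and 13, went from 49.3 and 35.0 CPM to 2.44 and 0.668 CPM (-4.79, SE 0.46, adjusted p = 1e-12). Col3a1 (mm9 chr1:45368383-45406551), the chain of fibrillar type III collagen, fell from 46.7 and 35.0 CPM to 0.813 and 2.00 CPM (-4.76, SE 0.42, adjusted p = 5.87e-14). These genes were near the limit of detection in the knockout. Sulf2 (mm9 chr2:165898589-165981163), an extracellular sulfatase that edits heparan sulfate, was at 105 and 86.1 CPM in Trim33-WT and at 7.72 and 5.68 CPM in Trim33-KO (-3.84, SE 0.24, adjusted p = 4.95e-20). Ncam1, a neural cell adhesion molecule, went from 53.1 and 48.1 CPM to 4.88 and 3.01 CPM (-3.69, SE 0.32, adjusted p = 3.78e-14). Sod3, the secreted superoxide dismutase, fell from 43.7 and 41.4 CPM to 8.13 and 5.35 CPM (-2.67, SE 0.30, adjusted p = 3.3e-10). For each of the 3, both wild-type libraries lay above both knockout libraries, as the rule required. AI662270 was at 180 and 201 CPM in Trim33-WT against 36.6 and 29.7 CPM (-2.53, SE 0.16, adjusted p = 4.95e-20). The remaining falls were those of the mitochondrial carbonic anhydrase Car5b (-2.83), the elastic fibre glycoprotein Emilin1 (-2.72), xanthine dehydrogenase Xdh (-2.39), the docking protein Nedd9 (-2.33), the Rac activators Elmo1 (-2.31) and Spata13 (-2.16), the ephrin receptor Ephb2 (-2.17) and the matricellular protein Wisp1 (-2.14, from 58.3 and 36.8 CPM to 12.2 and 9.36 CPM). Elmo1 and Spata13 lost the call in at least 1 fit with a library left out.

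At the limit of detection, 21 called genes had at most 3 counts in each Trim33-WT library and 21 others at most 3 in each Trim33-KO library. Besides those named, the first set held the microtubule protein gene Map6 (at least 15-fold higher), the Rab5 exchange factor Rin3 (at least 13.4-fold) and Scrn1 (at least 11.9-fold). The second set held Ccdc3 (at least 13.1-fold lower), the chondroitin sulfotransferase gene Chst15 (ratio 63.3, 95% counting interval 10.9 to 2544), the ferritin-like Fthl17f (ratio 29.5) and Foxred2 (ratio 28.4).

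The gene groups were read against the share of all genes called, 5.58%. Where a library is named with a list, leaving it out gave the stated count, and another library could give the same. TGF-β and BMP pathway genes were mostly not called, with 1 of 34 tested higher and 1 lower (median -0.00). The ligand Bmp2 rose from 54.8 and 53.4 CPM to 171 and 136 CPM (1.5, adjusted p = 7.9e-12). The ligand Tgfb3 was low, at 5.14 and 5.26 CPM in Trim33-WT and 0 and 0.668 CPM in Trim33-KO (adjusted p = 0.00813), and lost the call in 6 of the 8 fits with a library left out. Of the 24 TGF-β and BMP target genes 7 were called (29.2%), 6 higher and 1 lower, with a median of 0.09. Cyr61, a matricellular protein that is also a Yap target, went from 165 and 192 CPM to 475 and 483 CPM (1.42, adjusted p = 9.76e-16), and Id1, a direct BMP target that blocks basic helix-loop-helix factors, from 91.7 and 131 CPM to 223 and 229 CPM (1.01, adjusted p = 5.09e-08). Both genes had higher values in each knockout library than in either wild-type library, as did every gene called higher. The cyclin-dependent kinase inhibitor Cdkn1a (0.79), the related Id2 (0.53) and the repressor Snai1 (2.19) were among the others that rose, the last from 1.71 and 3.76 CPM to 13.8 and 12 CPM, and fibronectin, Fn1, fell (-0.38). Without untreated Trim33-KO replicate 1 the 7 called target genes became 4.

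Cell cycle genes moved little, while 14.3% of the p53 targets were called, against 5.58% of all genes. Of 91 genes of the E2f and DREAM list, which the series asks about, 2 rose and 1 fell (3.30% called) and the median was 0.01. The mitotic transcription factor Foxm1 was at 203 and 199 CPM in Trim33-WT and at 402 and 394 CPM in Trim33-KO (0.98, adjusted p = 4.73e-10). The replication initiation factor Mcm10 rose from 55.3 and 62.0 CPM to 95.1 and 99.9 CPM (0.73, adjusted p = 0.00126), and Atad2 fell (-0.46). Of these, Foxm1 alone kept the call in all 8 fits with a library left out, and without untreated Trim33-KO replicate 2 or untreated Trim33-WT replicate 1 the 3 calls became 1, and without untreated Trim33-KO replicate 1 they became 6. E2f4 was at 83.1 and 72.2 CPM in Trim33-WT and 81.7 and 76.5 CPM in Trim33-KO (0.03, SE 0.17, adjusted p = 0.945). Its direction was not fixed by these libraries, since it turned when a library was left out. The helicase Recql was at 27.0 and 31.2 CPM against 28.1 and 19 CPM (-0.32, SE 0.27, adjusted p = 0.506), and Myc at 203 and 162 CPM against 181 and 178 CPM (-0.02, SE 0.12, adjusted p = 0.95). For each of these genes the libraries of the 2 genotypes overlapped. In the list of 44 G2/M genes the cyclin Ccnf alone was called (0.71, from 66.8 and 73.7 CPM to 111 and 120 CPM), and it was not without untreated Trim33-KO replicate 2. Among 28 p53 targets 4 rose and none fell (median 0.12): Cdkn1a from 57.4 and 49.6 CPM to 87.4 and 96.9 CPM, the apoptosis effector Bax (0.69), the nuclease Aen (0.54) and Trp53 itself (0.59, from 167 and 159 CPM to 234 and 256 CPM). Cdkn1a and Trp53 kept their calls without any one library, and without untreated Trim33-KO replicate 2 or untreated Trim33-WT replicate 1 the list had 2 calls.

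Few genes of the immune lists were called, and those fell, while the list medians went in both directions. Of 47 interferon-stimulated genes 17 were in the table, with a median of -0.58, also with Parp12 at its bound, and 2 fell. Parp12, an ADP-ribosyltransferase, was at 6.85 and 5.64 CPM in Trim33-WT and at 0 in both Trim33-KO libraries (at least 5.64-fold lower, adjusted p = 0.000784), and Lgals3bp, a secreted galectin-binding glycoprotein, went from 121 and 113 CPM to 50.8 and 73.8 CPM (-0.90, adjusted p = 4.21e-05). Without untreated Trim33-KO replicate 2 there was 1 call in the list. None of the 13 MHC class I genes was called at an adjusted p below 0.01 by edgeR, and their median was 0.06. In the NF-κB list of 24 genes the chemokine Cxcl1 (-0.70, from 81.8 and 78.9 CPM to 55.3 and 44.1 CPM) and Tnfaip2 (-0.56) fell, and without untreated Trim33-KO replicate 2 neither was called. The median of that list was 0.03, and 13 of its genes had a positive value.

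Matrix and adhesion genes changed in both directions. Of 53 collagen, laminin and other matrix genes 30 were tested, 3 rose and 3 fell (median -0.15). The collagen VIII chain Col8a1 went from 63.0 and 48.9 CPM to 134 and 136 CPM (1.28, adjusted p = 6.91e-09), and the basement membrane linker nidogen, Nid1, from 446 and 392 CPM to 789 and 706 CPM (0.83, adjusted p = 5.06e-09), while Col3a1 fell as described. These members kept their calls without any one library, and the smaller changes of Hspg2 (0.47), Col18a1 (-0.40) and Fn1 (-0.38) did not, which left 3 calls without untreated Trim33-KO replicate 1. Of 11 integrin genes Itgav (0.49) rose and Itgb5 (-0.47) and Itgb8 fell, Itgb8 from 3.86 and 3.01 CPM to 0 in both. Without untreated Trim33-KO replicate 1, none of the 3 integrins was called. Of 17 epithelial and mesenchymal markers 4 rose and 1 fell: the tight junction gene Cldn6 went from 236 and 232 CPM to 378 and 403 CPM (0.74, adjusted p = 5.79e-07) and the biliary keratin Krt19 from 132 and 174 CPM to 241 and 253 CPM (0.69, adjusted p = 2.92e-05), with Krt8 (0.36) and Snai1 beside them and Fn1 lower. The first pair kept the call without any one library, and without untreated Trim33-KO replicate 2 no more than these 2 of the 5 were called. The biliary matrix protein Spp1 fell from 343 and 368 CPM to 258 and 269 CPM (-0.43, adjusted p = 0.00381), and Sox9 was not called (-0.51, SE 0.24, adjusted p = 0.175). None of the 9 hepatocyte and fetal liver genes in the table was called by edgeR.

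Redox and metabolic genes were called in small numbers, but mostly at a larger share than the 5.58% of all genes. The share called was 17.6% in the Nrf2 list, 16.7% in the fatty acid list, 17.9% in the glycolysis list and 4.35% in the cholesterol list. In the Nrf2 and antioxidant list 4 of 34 rose and 2 fell, and its median was 0.21. Beside Nqo1, the aldo-keto reductase Akr1b8 went from 38.6 and 34.6 CPM to 71.6 and 79.9 CPM (1.05, adjusted p = 5.96e-05), and Taldo1 (0.57) of the pentose phosphate pathway and the cystine transporter Slc7a11 (0.52) rose too. The genes of the list that fell were superoxide dismutases, Sod3 and the cytosolic Sod1 (-0.71, from 165 and 210 CPM to 104 and 125 CPM). Without untreated Trim33-WT replicate 2 the 6 calls became 3. Fatty acid synthesis genes fell in 3 of 18 cases, those of Acsl5 (-0.71, from 320 and 308 CPM to 189 and 194 CPM), Acaca (-0.52) and Fasn (-0.39), of which Acsl5 alone was called without untreated Trim33-KO replicate 1. Of 23 cholesterol genes Hsd17b7 rose (0.81), and of 28 glycolysis and hypoxia genes 4 rose, Hk2 (0.58), Aldoa (0.48), Gpi1 (0.44) and Ldha (0.38), and Hif1a fell (-0.47). Without untreated Trim33-KO replicate 2 none of these 5 glycolysis calls remained, and without Trim33-KO HU replicate 1 the cholesterol call was gone.

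Among signalling and growth genes, 4 of 25 AP-1 and immediate-early genes rose and none fell (median 0.05). Ier3, an early response gene that limits apoptosis, went from 197 and 183 CPM to 370 in both (0.96, adjusted p = 5.9e-10) and kept the call without any one library. Klf4, a zinc finger factor of epithelial differentiation, went from 39.8 and 23.3 CPM to 61.8 and 60.1 CPM (0.96, adjusted p = 0.000116), the RNA-destabilising Zfp36 from 6.0 and 6.77 CPM to 17.1 and 19 CPM (1.49, adjusted p = 0.00427), and Fosl2 rose by 0.53. Without Trim33-WT untreated replicate 2 the 4 calls became 1. Of 15 Wnt genes Wisp1 and the receptor Fzd6 (-0.83, from 131 and 135 CPM to 69.1 and 80.5 CPM) fell and both calls held without any one library. Hippo-Yap genes had 1 rise, that of Cyr61, and 1 fall, that of Sav1 (-0.60), among 24, MAPK feedback genes the rise of Dusp4 (0.66) among 23, and integrated stress response genes the rise of Slc7a11 and the fall of Vldlr (-0.78) among 29. Without untreated Trim33-KO replicate 2 the Hippo-Yap list had 1 call. Sav1, Dusp4, Slc7a11 and Vldlr each lost the call without 1 library or another, and no call of the last 2 lists remained without untreated Trim33-KO replicate 1.

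Ribosomal genes, where they changed, rose by small amounts. Of 75 cytosolic ribosomal protein genes 8 rose and none fell, and the median was 0.16 against -0.00 over all genes. Rpl28 went from 253 and 283 CPM to 370 and 466 CPM (0.64, adjusted p = 2.75e-05), Rps19 from 195 and 155 CPM to 272 and 269 CPM (0.63, adjusted p = 0.000122) and Rps28 from 61.7 and 53.8 CPM to 87.4 and 102 CPM (0.72, adjusted p = 0.00211). For these, as for every called gene, the groups did not overlap. None of the 5 members with the largest changes kept the call in all 8 fits with a library left out. Without untreated Trim33-KO replicate 2 the 8 calls of the list became 1, and without untreated Trim33-KO replicate 1 they became 11. In the list of 34 ribosome biogenesis and Myc target genes 5 rose (median 0.18), with the RNA polymerase I subunit Polr1a (0.60), the rRNA modifiers Nop2 and Fbl, Wdr43 (0.50) and Ldha, and without untreated Trim33-KO replicate 2 there was 1 call. Of the 6 imprinted, 2 two-cell stage, 6 Naip and 13 DNA methylation genes in the table none was called by edgeR.

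**Figure D2:**
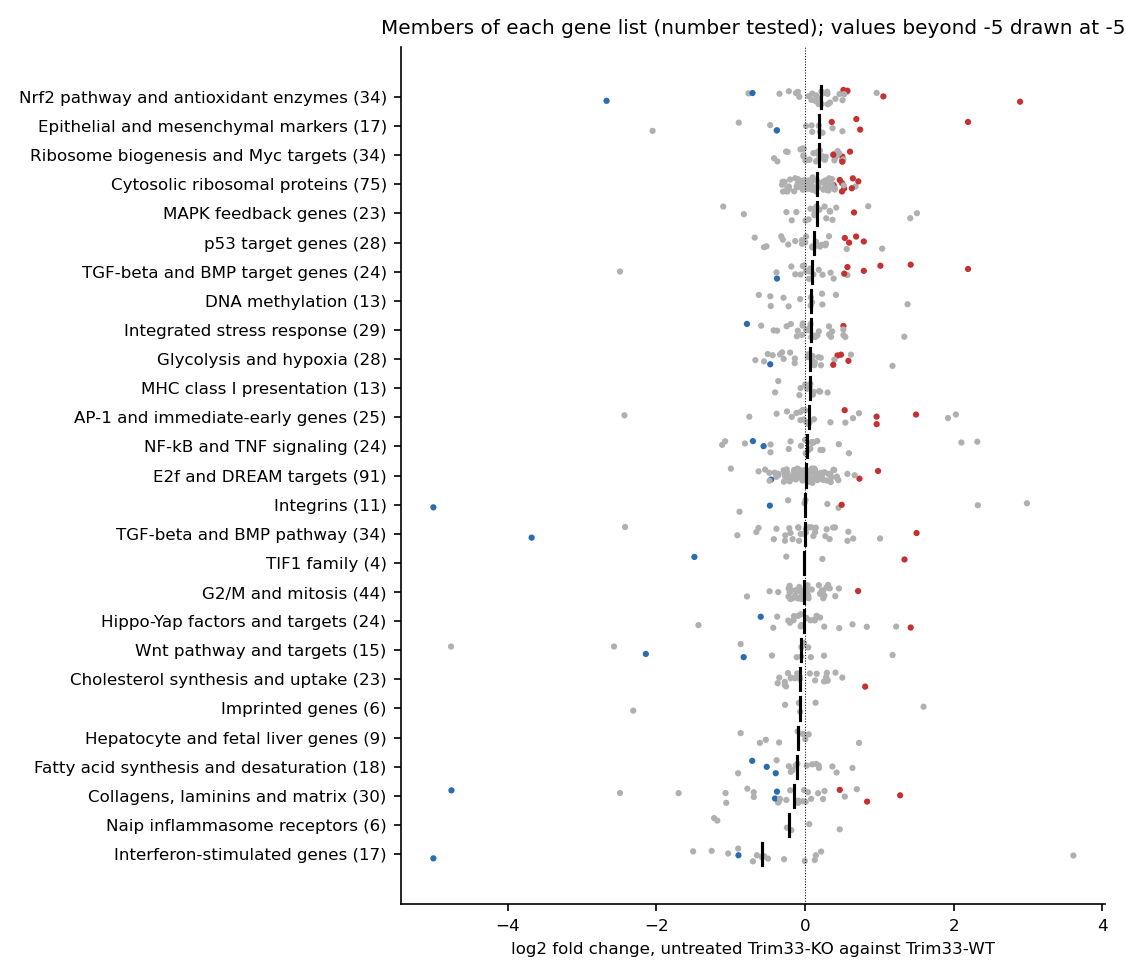
Log2 fold change of untreated Trim33-KO against Trim33-WT for each tested member of each gene list, with the number tested in brackets; red dots are genes called higher, blue dots genes called lower, grey dots genes not called, and black bars mark the medians. The medians lie between -0.58 (interferon-stimulated genes) and 0.21 (Nrf2 and antioxidant genes), and most dots of every list larger than 10 genes are grey.

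The calls were spread unevenly over the chromosomes, and whole chromosomes were shifted. An mm9 position was found for 10663 genes, with 327 of the genes that rose and 277 of those that fell. Chromosome 12 had the lowest median, -0.36, and 45 of its 375 genes fell and 4 rose (12% lower). Chromosome 15 had a median of -0.23, with 34 of 442 genes lower and 8 higher. Both differ in direction from chromosome 7, where the median was 0.29 and 70 of 787 genes rose and 6 fell (8.89% higher). Chromosome 17 had a median of 0.23 with 30 genes higher and 2 lower, and chromosomes 2, 3, 4 and 6 had medians of 0.15 to 0.19. These 6 chromosomes with a positive median held 36.3% of the placed genes, 69.1% of the placed genes that rose (226) and 43 that fell. Chromosomes 12 and 15 held 7.66% of the genes and 28.5% of those that fell (79), and 12 that rose.

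The shift ran along the length of these chromosomes. Medians were taken in overlapping windows of 30 consecutive genes, so neighbouring windows shared genes and are not separate stretches. The median was negative in all 24 windows of chromosome 12, all 28 of chromosome 15 and all 23 of chromosome X. It was positive in all 57 windows of chromosome 2, all 30 of chromosome 6 and 50 of the 51 of chromosome 7. The highest window (0.55) spanned chr3:90195310-94590414, over the cornified envelope cluster, and the lowest (-0.53) chr12:39505967-56290200. Both replicates of a group took part. Relative to the mean over the 4 libraries, the median gene of chromosome 12 was at 0.19 in both Trim33-WT libraries and at -0.16 and -0.21 in the Trim33-KO libraries on the log2 scale. GC content and length of the genes, which had rank correlations of 0.08 and -0.06 with the fold change across genes, left the medians nearly as they were when their trend was removed (-0.35 on chromosome 12 and 0.28 on chromosome 7). With HU, 19 of the 20 chromosome medians had the same sign, at -0.41 on chromosome 12 and 0.23 on chromosome 7. Whether the cells of the 2 genotypes differ in DNA copy number was not tested, as RNA alone was measured here.

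**Figure D3:**
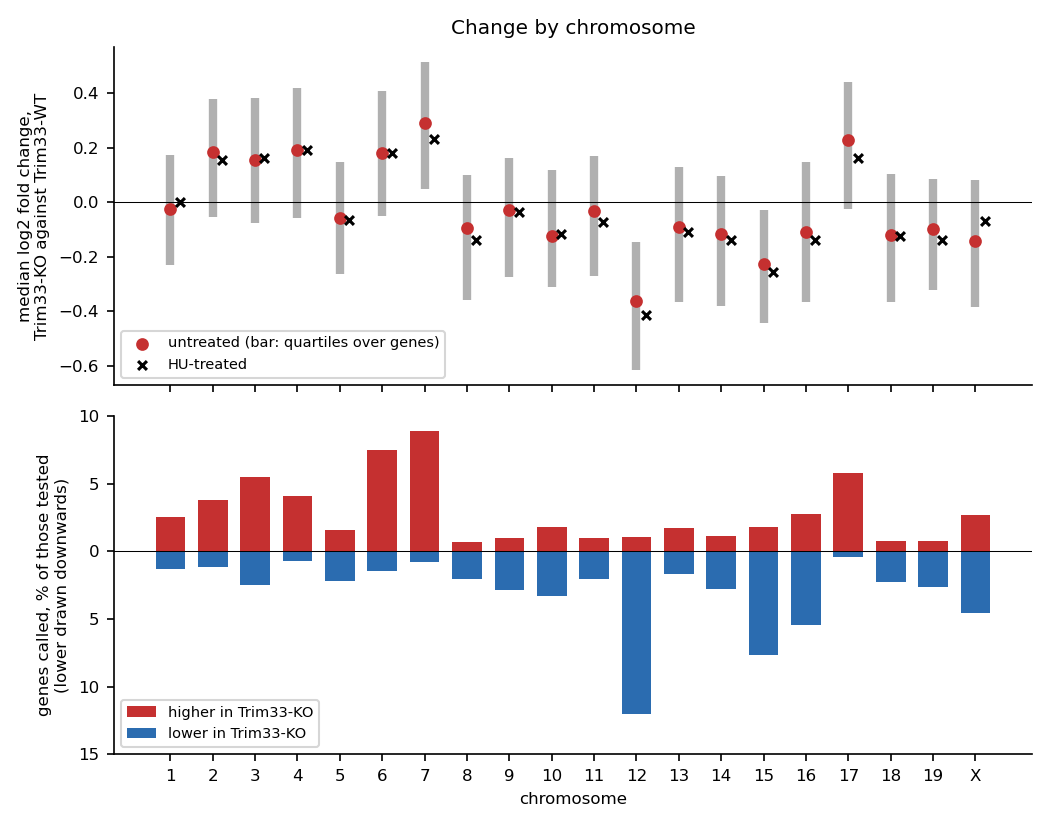
Upper panel, median log2 fold change of Trim33-KO against Trim33-WT over the genes of each chromosome, untreated (red dots, with grey bars from the lower to the upper quartile over genes) and with HU (crosses); lower panel, percent of the tested genes called higher (red, upwards) and lower (blue, downwards) in untreated cells. Chromosome 7 reaches 0.29 with 8.89% of its genes higher, and chromosome 12 reaches -0.36 with 12% lower.

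The HU-treated libraries show which differences were present in a second pair of groups of the same genotypes. With HU, 677 genes (6.04%) were called between Trim33-KO and Trim33-WT, 367 higher and 310 lower. Of these, 353 were among the 626 called without treatment, which is 56.4% of the untreated calls and 52.1% of the calls with HU, and all 353 had the same direction. Of the 626 untreated calls 617 kept the sign with HU, and the fold changes correlated across all genes (r = 0.69), a description only, since genes of a library share its depth and handling. All 30 of the genes with the largest changes were called with HU too. Slco4a1 reached 6.44 with HU, Nqo1 2.18, Sprr2k 3.63, Cryab 3.10, Sulf2 -4.07, Col3a1 -5.51 and Il13ra1 -2.69. The 9 genes with the other sign, among them Gm3993, Entrez100502672, Homez, Gm17501, Klf4, Ptges3-ps, Leng1 and Lars2, were not called with HU.

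The size of the knockout effect itself differed between HU and untreated cells for 8 genes (0.0714%, adjusted p below 0.05), with 602 at an unadjusted p below 0.05. Klf4 was higher in Trim33-KO without treatment but was at 183 and 202 CPM in Trim33-WT and at 170 and 163 CPM in Trim33-KO with HU (difference -1.17, SE 0.23, adjusted p = 0.0108). The cornified envelope gene Sprr1a was at 251 and 243 CPM against 828 and 793 CPM with HU, a smaller rise than without it (difference -0.74, SE 0.16, adjusted p = 0.0235). H1f0, the linker histone of non-dividing cells, was at 686 and 724 CPM against 554 and 621 CPM untreated and at 601 and 580 CPM against 309 and 254 CPM with HU (difference -0.81, SE 0.15, adjusted p = 0.00935). So the signed log2 effect was lower with HU for all 3 of these genes. For Klf4 and Sprr1a the rise in Trim33-KO was lost or smaller, whereas for H1f0 the fall in Trim33-KO was larger with HU. Ppp2r1b, a scaffold subunit of protein phosphatase 2A, was at 94.2 and 103 CPM against 144 and 124 CPM untreated and at 75.1 and 74.8 CPM against 183 and 193 CPM with HU (difference 0.89, SE 0.19, adjusted p = 0.0317). The others were the ribosomal RNA genes Rn18s (0.75) and Rn28s1 (0.71), the mitochondrial leucyl-tRNA synthetase Lars2 (0.88) and Entrez100502672, which was at 0 in both untreated Trim33-KO libraries. Ribosomal RNA genes took 0.325 and 0.254% of the counts in untreated Trim33-WT, 0.223 and 0.228% in untreated Trim33-KO, 0.241 and 0.253% in Trim33-WT with HU and 0.324 and 0.316% in Trim33-KO with HU. These shares include the counts of Rn18s and Rn28s1 themselves, so they are no separate measure of those genes. The source of the differences in share, and their part in the value of Lars2, were not tested. Without either Trim33-WT HU library no gene passed (464 and 474 at an unadjusted p below 0.05), and without Trim33-WT untreated replicate 1 there were 20.

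**Figure D4:**
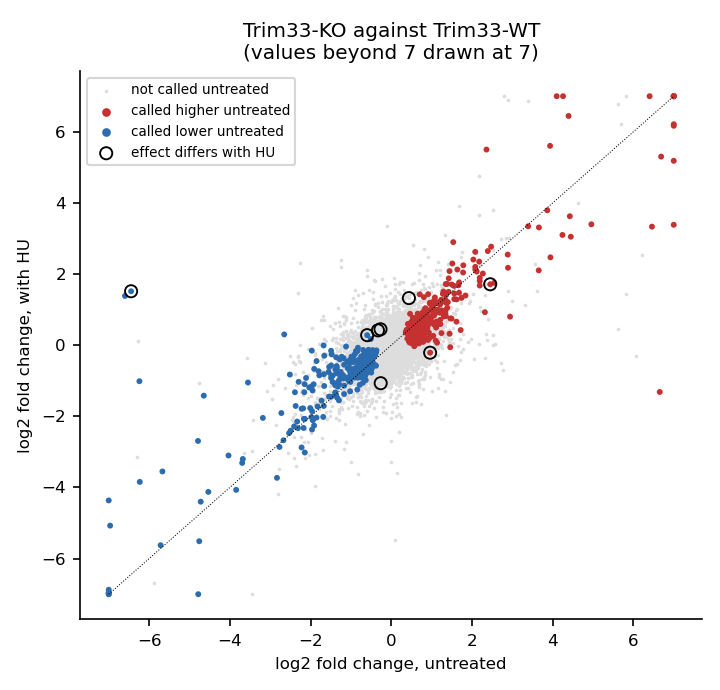
Log2 fold change of Trim33-KO against Trim33-WT for every gene, without treatment (horizontal axis) and with HU (vertical axis); red and blue dots are the genes called higher and lower without treatment, grey dots the rest, open circles the 8 genes whose effect differed, and the dotted line marks equal changes. Of the 626 coloured dots 617 lie in the lower left or upper right quadrant.

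A separately processed experiment of the series, with a control vector (Ctrl), compared 2 knockout lines of the same cells, Trim33-KO1 and Trim33-KO2, with Trim33-WT. The labels do not say whether the knockout of the HU experiment is one of them. These comparisons share their Trim33-WT Ctrl libraries with each other, and their fold changes are set beside those above without a test between the tables. Their table is named as normalised by the authors, although it holds whole numbers with unequal library totals, so its calls rest on reading it as counts. In Trim33-KO1 6842 of 13107 genes were called (52.2%), and in Trim33-KO2 6545 (49.9%). Trim33 itself was at 50.4% of the wild-type level in Trim33-KO1 and at 80.9% in Trim33-KO2. The fold changes of the untreated knockout did not follow those of either line across the 11161 genes in both tables (r = -0.07 and -0.03). Of the 626 calls 416 were also called in Trim33-KO1, 155 in the same and 261 in the opposite direction, and 401 in Trim33-KO2, 168 in the same and 233 in the opposite direction. The 416 genes are 66.5% of the calls here and 6.86% of those of Trim33-KO1 in the shared genes.

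Among the 15 largest rises 14 were in the other table. In Trim33-KO1 7 of them were called the same way and 7 the opposite way, and in Trim33-KO2 6 the same way and 5 the opposite way. Sprr2k was at 0.777 and 0.752 CPM in Trim33-WT Ctrl, 7.98 and 7.82 CPM in Trim33-KO1 and 14.6 and 17.3 CPM in Trim33-KO2, and Slco4a1 at 19.6 and 19.2 CPM, 92.3 and 66.8 CPM, and 81.9 and 70.6 CPM. Cryab was at 4.38 and 4.31 CPM, 27.6 and 24.6 CPM, and 8.62 and 9.95 CPM. These genes were higher in every knockout library than in the wild-type libraries of their experiment. Sprr1a went the other way, from 1390 and 1406 CPM in Trim33-WT Ctrl to 480 and 536 CPM in Trim33-KO1 and 386 and 430 CPM in Trim33-KO2, and Nqo1 was lower in Trim33-KO1 (-1.19) and higher in Trim33-KO2 (1.68). Of the 15 largest falls 2 were called lower and 10 higher in Trim33-KO1, and 3 lower and 10 higher in Trim33-KO2. AI662270 fell in each line (-5.08 and -3.69). Col3a1 was at 6.22 and 5.54 CPM in Trim33-WT Ctrl, 370 and 318 CPM in Trim33-KO1 and 44.6 and 38.6 CPM in Trim33-KO2, and Il13ra1 was at 0 in both Trim33-WT Ctrl libraries, 6.32 and 5.91 CPM in Trim33-KO1 and 3.98 and 3.45 CPM in Trim33-KO2. The 2 Trim33-WT pairs thus differed as well, with Il13ra1 at 49.3 and 35.0 CPM in one and at 0 in the other, and experiment and cells cannot be told apart as the source. The list medians also differed: the E2f and DREAM genes had a median of 0.01 here, 0.63 in Trim33-KO1 and 0.82 in Trim33-KO2, and the integrated stress response genes 0.07 here, -2.02 and -1.84.

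**Figure D5:**
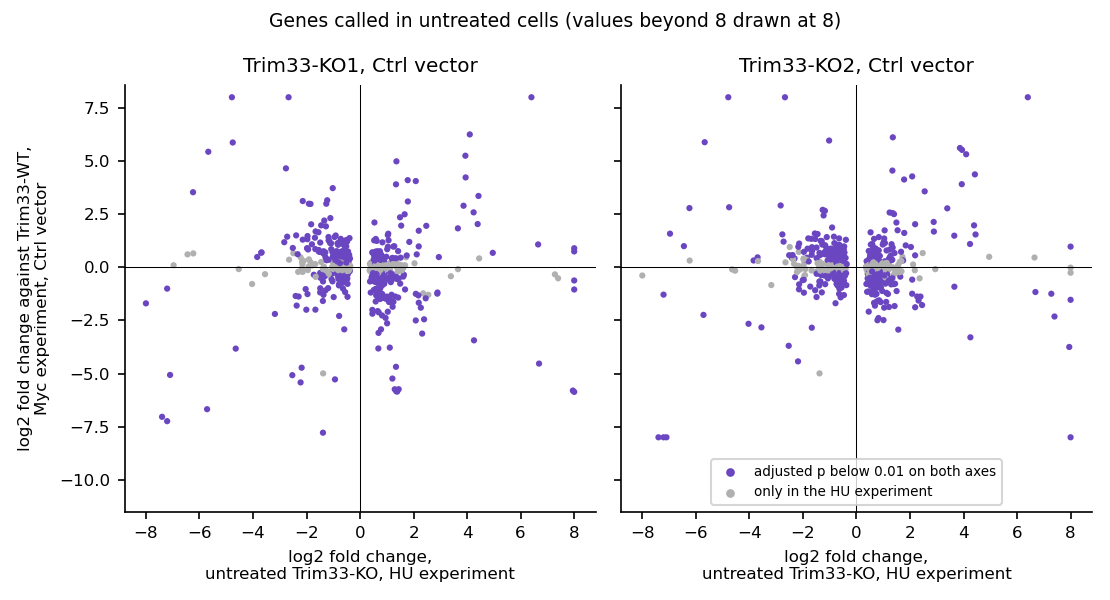
Genes called between untreated Trim33-KO and Trim33-WT in the HU experiment (horizontal axis, log2 fold change) against their log2 fold change in Trim33-KO1 (left) and Trim33-KO2 (right) with the control vector; purple dots passed an adjusted p of 0.01 on both axes and grey dots on the horizontal axis only. In the left panel 261 of 416 purple dots lie in the quadrants of opposite sign, and in the right panel 233 of 401.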

How the data were processed

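Per the labels, total RNA was extracted with TRIzol and libraries were made with a NEBNext kit for Illumina sequencing. The submitters' processing notes name STAR 2.5.4, the mm9 build and edgeR 3.26.8; the counting tool and annotation are not given in the sources used here. The authors deposited read counts per gene for 8 libraries of the HU experiment and 12 of the Myc vector experiment. The Myc vector table is named as normalised, but it holds whole numbers whose totals differ between libraries and was treated as counts; whether it was scaled beforehand is not known. Tables of the authors' own comparisons (fold changes, p-values) were not used. All 8 libraries of the HU experiment were fitted with 1 coefficient per group by edgeR 4.0.16 (R 4.3.3) with TMM factors of 0.982 to 1.02, filterByExpr, which removed 0 genes, glmQLFit and glmQLFTest. The common biological coefficient of variation was 0.102. The Myc experiment was fitted alone. A gene was called at a Benjamini-Hochberg adjusted p below 0.01, and at 0.05 for the difference of effects. The named genes were the 15 largest rises and falls among called genes with a symbol, groups that did not overlap and a mean of at least 10 CPM over the 4 untreated libraries, the called genes with the most counts among those near 0 in one group, up to 5 called members of each list, and genes the series is about. Members and lists were chosen with earlier results of these data known. Positions come from GENCODE on mm9, promoters from RefSeq on GRCm38.p6. Not every called gene is reported here. Replicate numbers did not pair the libraries (r of deviations -0.0136 to 0.0510). Alternatives were another normalisation, DESeq2 1.42.0, other filters and thresholds, the 4 untreated libraries alone, a replicate block and leaving out each library.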

Additional observations from a re-analysis of the deposited data

Results flagged for a closer look

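For 8 genes the effect of the knockout differed between HU-treated and untreated cells in edgeR's test of the difference itself (adjusted p below 0.05). As log2 values of the effect with HU minus the effect without it, these were -0.81 for H1f0, 0.75 for Rn18s, -1.17 for Klf4, 0.88 for Lars2, 0.71 for Rn28s1, -0.74 for Sprr1a, 7.96 for Entrez100502672 and 0.89 for Ppp2r1b. Each of the 8 lost its call without 1 library or another, and the value of Entrez100502672 depends on a group at 0. The ribosomal RNA share of a library includes the counts of Rn18s and Rn28s1, so it is no separate measure of them. The source of its differences between libraries, and its part in the value of Lars2, were not tested. The inducible cyclooxygenase Ptgs2 came next (-0.62, adjusted p = 0.0721), at 318 and 250 CPM in Trim33-WT and 696 and 623 CPM in Trim33-KO untreated and at 1455 and 1428 CPM against 2299 and 2050 CPM with HU.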

How the results depend on the processing

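The 626 calls (344 higher, 282 lower) became 396 (219 and 177) with DESeq2, 1349 (705 and 644) at an adjusted p below 0.05, 252 (122 and 130) with a log2 fold change of at least 1 as well, and 337 to 599 (199 to 321 higher, 138 to 279 lower) without 1 library, fewest without untreated Trim33-KO replicate 2. With a replicate block, which the shared numbers do not call for, 791 genes passed. The 4 untreated libraries fitted alone gave 490 calls, 261 higher and 229 lower. No called gene changed sign under any alternative run. The 8 differences became 5 with DESeq2, 2 at an adjusted p below 0.01 and 0 to 20 without 1 library (1 without either Trim33-KO HU library, 2 without untreated Trim33-KO replicate 2 or Trim33-WT replicate 2). Of the 30 largest changes 27 to 30 were called without 1 library, and 7 when at least 5 CPM in every library was asked for, since that tests fewer genes (9354). The 69 list calls became 42 in the 4 untreated libraries alone, 42 with DESeq2 and 35 to 62 without 1 library. Trim33 stayed between -1.61 and -1.38 without 1 library. Directions turned for genes not called: E2f4 was at -0.032 without untreated Trim33-KO replicate 1, -0.080 without untreated Trim33-WT replicate 2 (range -0.080 to 0.13 without 1 library) and -0.015 with GC and length trends removed, an alternative chosen after seeing the data, Myc at 0.15 (range -0.18 to 0.15) and Mcm5 at -0.076 (range -0.076 to 0.14) without untreated Trim33-WT replicate 1, and Rbl1 at -0.016 (range -0.016 to 0.19) without untreated Trim33-KO replicate 1. The cause was not tested. Among named genes, the calls of Tgfb3, Snai1, Atad2, Hspg2, Col18a1, Itgb8, Itgav, Itgb5, Krt8, Hsd17b7, Acaca, Vldlr, Slc7a11, Taldo1, Zfp36, Fosl2, Tnfaip2, Dusp4, Sav1, Hk2, Hif1a, Nop2, Fbl, Rps28 and S100a11 were lost with DESeq2, as were the differences of Rn18s, Entrez100502672 and Ppp2r1b. Of 102 named called genes 70 kept the call in every other setting that gave a value for them, and 50 also without any one library. A gene that a setting did not test gave no value there and was not counted as lost. With 2 libraries a group and 2315327 to 3046581 counts each, small changes of low genes were not detectable at this depth.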

Other observations

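Families outside the lists were read after their values were seen, so their counts are descriptions. Of 17 genes tested under interleukin and gp130 family receptor symbols, 5 fell and none rose in untreated Trim33-KO, with a median of -0.59. The share that fell was 29.4%, against 2.52% of all genes. Beside Il5ra and Il13ra1 the genes that fell were the leukemia inhibitory factor receptor Lifr, from 21.4 and 30.1 CPM to 8.94 and 6.01 CPM (-1.80), the oncostatin M receptor Osmr, from 11.6 and 14.7 CPM to 4.07 and 3.34 CPM (-1.83), and the interleukin 12 receptor chain Il12rb1 (-1.17). The 17 include Il1rn, a secreted receptor antagonist and no receptor (6.06, not called). With HU 4 of the 17 fell, and Lifr was not called. In the Ctrl vector experiment the medians were 0.70 in Trim33-KO1 and 0.69 in Trim33-KO2. There Lifr, Osmr, Il12rb1 and Il13ra1 were called higher in both lines and Il5ra lower in both. The 3 Ifi200 genes in the table, nucleic acid sensors of the interferon response, all fell without treatment. Ifi204 went from 73.7 and 71.4 CPM to 32.1 and 39.1 CPM (-1.02), Ifi205 from 36.8 and 38.3 CPM to 17.5 and 12 CPM (-1.36) and Ifi211 from 83.5 and 77.8 CPM to 39.8 and 45.1 CPM (-0.92). With HU only Ifi204 was called. In the Ctrl vector experiment the medians of the Ifi200 genes were 0.72 in Trim33-KO1 and 0.25 in Trim33-KO2. Of 12 Eph receptors and ephrins Epha2 rose (0.60) and Ephb2 (-2.17), Ephb3 (-1.49) and Efnb1 (-1.54) fell. With HU the calls were the rise of Epha2 and the fall of Ephb2. In the Ctrl vector experiment Epha2 was called lower, and Ephb3 and Efnb1 higher, in both lines. Ephb2 was called higher in Trim33-KO2 only.

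The proliferin genes Prl2c2 and Prl2c3, placental hormones also made by growing fibroblasts, rose from 562 and 482 CPM to 1324 and 1139 CPM (1.24) and from 442 and 372 CPM to 1133 and 943 CPM (1.35), although reads of these near-identical copies cannot be assigned with confidence. In the Ctrl vector experiment both genes were called lower in Trim33-KO1 and higher in Trim33-KO2. The decoy TRAIL receptors Tnfrsf22 and Tnfrsf23 rose by 1.62 and 1.56, with Tnfrsf23 going from 130 and 86.1 CPM to 326 and 309 CPM. The related Tnfrsf26, at 2.57 and 7.52 CPM in Trim33-WT and 0 and 1.67 CPM in Trim33-KO, had a negative value (-2.45) and was not called. In the Ctrl vector experiment neither Tnfrsf22 nor Tnfrsf23 was called in either line. Aqp5 fell from 31.3 and 39.8 CPM to 7.32 and 8.69 CPM (-2.14), against the rise of Aqp8. In the Ctrl vector experiment Aqp5 was called higher in Trim33-KO1 (3.12) and in Trim33-KO2 (1.12). Aqp8 was called lower in Trim33-KO1 (-1.24) and higher in Trim33-KO2 (2.13). All 12 zinc finger genes in the table between mm9 chr4:145104787-147222475 had a positive value (median 0.54) and 4 rose, among them Zfp980, from 71.5 and 60.9 CPM to 206 and 154 CPM (1.44). Over all 679 tested genes of chromosome 4, which is itself shifted, 70.4% had a positive value, the median was 0.19 and 4.12% rose. With HU 6 of them rose. In the Ctrl vector experiment the medians of these genes were -3.41 in Trim33-KO1 and -0.70 in Trim33-KO2. These genes are close paralogues as well.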
